A study of Rattus norvegicus with 2 samples.

Results

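The genes described here build, regulate or report on the contractile actin cytoskeleton: smooth muscle and other muscle actins, myosin light and heavy chains, tropomyosins, calponin family members, actin crosslinkers and monomer-binding proteins, small GTPases and kinases that act on them, and target genes of the transcription factor SRF and of the co-activator YAP. Their names were fixed as a list of 51, in which Ctgf is the older symbol of Ccn2, so the list holds 50 distinct genes in 3 groups: 19 smooth muscle and muscle genes, 8 SRF and YAP genes, and 23 general actin genes. A member was found through the transcript accession of its probes, which was matched to current rat symbols. At least 1 probe was found for 46 members, of 15442 genes named on the arrays. Mrtfa, Cnn2, Palld and Rock1 had no matched probe and were not analysed here. On each array, 42 members had a probe well above background in at least 1 colour, out of 10852 measured genes on one array and 10241 on the other. Cnn1, Lmod1, Ankrd1 and Myocd had a probe that was not well above background in any channel.

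The samples were total RNAs of neural precursor cells in culture, put on 2 two-colour rat expression arrays that shared 1 slide and 1 scan. All 4 RNAs came, per the labels, from primary neural stem cells of embryonic day 14 cerebral cortex of SD rats, grown in N2 medium with 10 ng/mL of the mitogen bFGF and electroporated transiently with 4 µg of plasmid. In the withdrawal array, red (Cy5) held cells with MSCV-IRES-EGFP, the empty vector, after bFGF withdrawal in NB medium for 2 days, and green (Cy3) held cells with the same vector in N2 medium plus bFGF. In the array labelled Bcl-2, red held cells with rBcl-2-MSCV-IRES-EGFP plus bFGF, which carry rat Bcl-2, a protein that blocks apoptosis, and green carried the same label as green of the withdrawal array. Both plasmids also express the fluorescent protein EGFP and were delivered transiently. The share of cells that took them up was not stated. Withdrawal changed the medium as well as the mitogen, and the effects of the 2 changes cannot be told apart.

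Each comparison had 1 array, with no replicate and no dye swap, so no test was made and no p-value is given. Each member has a log2 ratio of red over green, after background correction and loess normalization. A gene is called at least 2-fold higher or lower in red when its log2 ratio was at least 1 in size and all its probes above background lay on the same side of 0. The direction of these ratios could not be settled from the labels. Both arrays carry one label in green, yet their ratios had a Pearson correlation of -0.67 over 42877 gene spots, or of -0.12 with the ratio made by the scanner software. Directions below follow the colours as labelled, and each main value is also given with its sign turned. Because the arrays share the labelled control, their values are set side by side and are not independent of each other.

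Actin filaments and non-muscle or smooth muscle myosin generate tension in most cells, and tropomyosins, calponins and transgelins decorate the filaments. When actin monomers are taken up into filaments, the co-activators MRTF and, in smooth muscle, myocardin act with SRF at CArG boxes, and many of their targets are cytoskeletal genes. YAP and TAZ respond to tension and adhesion and act with TEAD factors, with Ccn2, Ccn1 and Ankrd1 among the usual reporters. In the embryonic brain, smooth muscle genes are best known from the mural cells of vessels, while beta- and gamma-actin and non-muscle myosin shape dividing neural precursors.

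The labelled cell type was checked first. All 13 neural progenitor markers with a probe, out of 15 listed, were well above background in at least 1 channel, among them Nes, an intermediate filament of neural progenitors, and the transcription factors Sox2 and Pax6. The log2 ratios of Nes were 0.18 and -0.28 (withdrawal first, as in all pairs of ratios below), and those of Sox2 were -0.12 and -0.27. The list as a whole lay further from 0, with medians of 0.52 and -0.27, and Ednrb, an endothelin receptor of radial glia, and Fabp7, a fatty acid-binding protein of the same cells, had 1.38 and -1.30 and 1.26 and -0.91. Its summed linear level was 163545 in green and 249478 in red of the withdrawal array and 257856 and 180302 on the other, or 108678, 117861, 116467 and 105174 without Fabp7. The sums were therefore higher in the channels in which smooth muscle genes were high, as given below, and the part of these markers in those results was not tested. Vim, vimentin, lay the other way, at -0.49 and 0.56. The RNA was taken from whole cultures, so fewer cells of a type and less RNA per cell cannot be told apart.

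Stretches upstream of 5 members are shown because they carry the DNA words named after the factors by which the members were grouped. RefSeq start-site windows of assembly GRCr8, from 250 bases before to 50 bases after each start, matched 42 of the 50 members, some with several starts, for 52 windows. The text shows the 250 bases before the start, 5′ to 3′ on the strand of the gene. Capitals mark a CArG box, a CArG box with 1 C or G among its 6 inner bases, or GGAATG in either orientation, the core word bound by TEAD factors. Positions count back from the start, with -1 as the base before it. Acta2, the actin of vascular smooth muscle, lies on the minus strand (chr1:241172504-241172753). It holds 2 CArG boxes with an inner C or G, which begin at -134 and -84, and 1 TEAD word at -196.
Acta2: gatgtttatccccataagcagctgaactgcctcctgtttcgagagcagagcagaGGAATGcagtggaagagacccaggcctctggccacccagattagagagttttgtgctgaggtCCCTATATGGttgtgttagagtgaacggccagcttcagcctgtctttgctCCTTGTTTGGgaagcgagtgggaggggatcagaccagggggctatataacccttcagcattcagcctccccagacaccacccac
The stretch of Ccn2, a secreted matrix protein and YAP reporter, is also on the minus strand (chr1:22624615-22624864) and holds 3 TEAD words, at -166, -101 and -92.
Ccn2: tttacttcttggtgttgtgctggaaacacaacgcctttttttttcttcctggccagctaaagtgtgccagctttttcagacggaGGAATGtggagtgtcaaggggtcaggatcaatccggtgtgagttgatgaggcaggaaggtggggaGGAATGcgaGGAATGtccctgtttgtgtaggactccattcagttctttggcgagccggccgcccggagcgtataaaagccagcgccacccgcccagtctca
Srf itself, on the plus strand (chr9:21923826-21924075), has 2 CArG boxes, at -81 and -61.
Srf: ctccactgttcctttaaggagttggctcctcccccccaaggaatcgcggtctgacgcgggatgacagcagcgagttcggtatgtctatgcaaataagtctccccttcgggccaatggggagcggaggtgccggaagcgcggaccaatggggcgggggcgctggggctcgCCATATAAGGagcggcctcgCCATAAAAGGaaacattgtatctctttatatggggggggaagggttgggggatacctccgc
Skeletal muscle actin, Acta1, on the minus strand (chr19:68784195-68784444), has 1 CArG box at -94, another 2 with an inner C or G at -222 and -171, and 1 TEAD word at -67.
Acta1: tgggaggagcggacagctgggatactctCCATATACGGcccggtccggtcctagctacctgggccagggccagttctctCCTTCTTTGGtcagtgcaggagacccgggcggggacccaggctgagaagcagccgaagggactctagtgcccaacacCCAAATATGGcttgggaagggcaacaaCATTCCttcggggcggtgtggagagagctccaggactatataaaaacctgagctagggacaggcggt
Actg1, cytoplasmic gamma-actin, on the minus strand (chr10:106120952-106121201), has 1 CArG box at -90.
Actg1: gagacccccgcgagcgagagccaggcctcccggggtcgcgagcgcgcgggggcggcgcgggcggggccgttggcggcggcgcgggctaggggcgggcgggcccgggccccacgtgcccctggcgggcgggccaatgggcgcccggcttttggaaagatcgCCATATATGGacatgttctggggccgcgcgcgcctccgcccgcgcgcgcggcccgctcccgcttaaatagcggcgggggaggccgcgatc

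A CArG box was present in 5 of the 52 windows of the members, or 9.62%, and in 548 of 33469 windows of all genes, or 1.64%. The 5 genes were Acta1, Actc1, Srf, Actg1 and Cnn2. The form with an inner C or G was present in 13.5% of the windows of the members and 8.1% of all windows. GGAATG, searched on both strands, was present in 28.8% and 14.2%. Since the members include genes listed as SRF and YAP targets, these shares describe the list. No match was found in the window of Tpm2. A match is a description of the letters, and binding was not measured.

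At the 2-fold limit, the withdrawal array had 5 of its 42 measured members higher in red and 0 lower. Of all genes on that array, 2.42% met the limit with red higher and 0.470% with red lower. On the array labelled Bcl-2, 0 of 42 were at least 2-fold higher and 4 were lower, where 0.557% of all genes were higher and 2.00% lower. The 5 were Tagln, Acta2, Myl9, Tpm2 and Ccn2, and the 4 were the same genes without Ccn2. With the sign turned on both, the withdrawal array would have 5 members lower and 0 higher, and the array labelled Bcl-2 would have 4 higher and 0 lower. With the sign turned on 1 array alone, the 4 shared genes would lie on the same side of 0 on both arrays. The 4 genes that met the limit on both arrays are all smooth muscle members, and each rests on 1 probe with 1 spot on each array. The share of all genes that met it on both arrays is not given here.

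**Figure D1:**
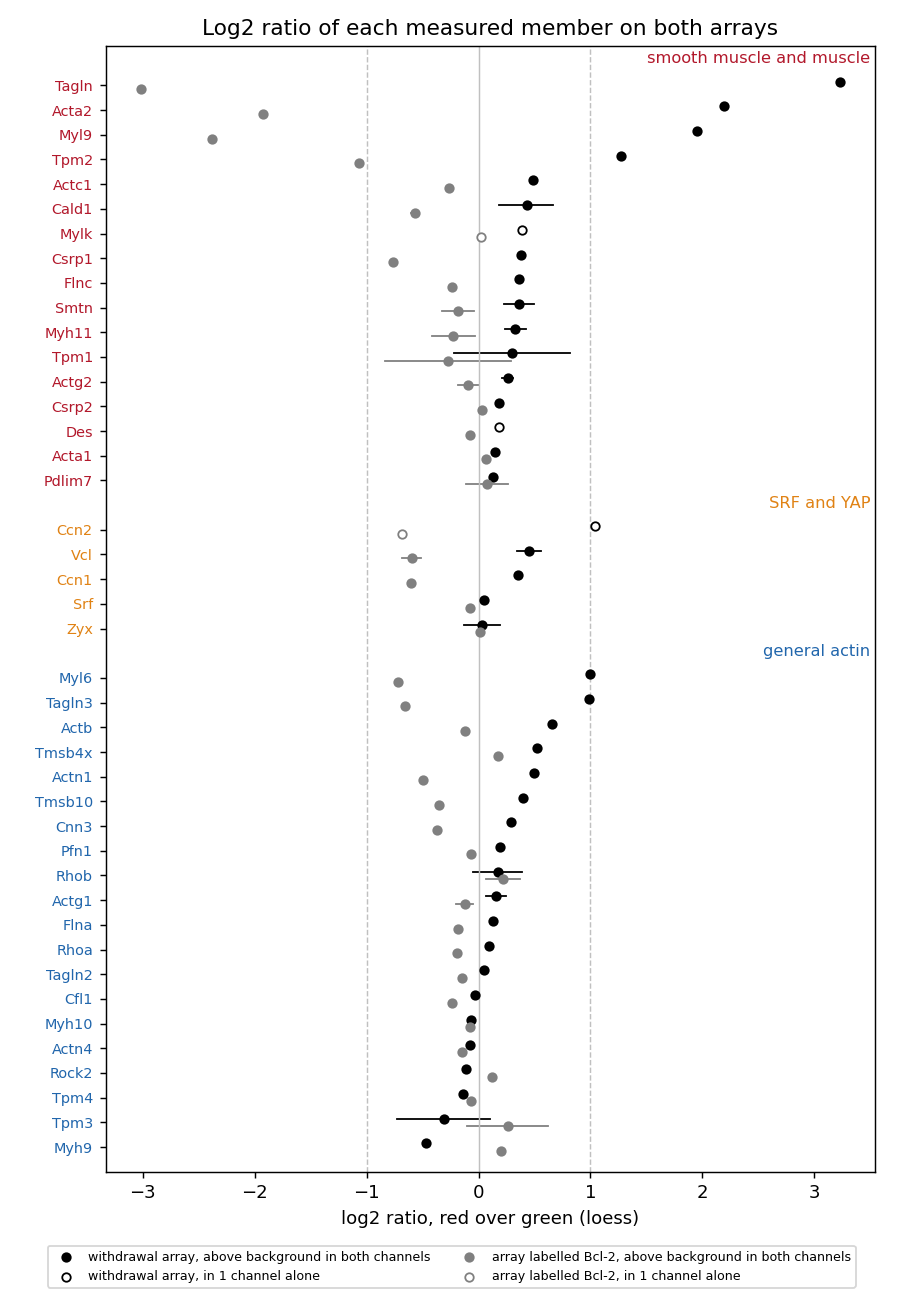
Log2 ratio, red over green, of the 42 measured members on each array, by group. Filled points were well above background in both channels and open points in 1 channel alone, bars run from the lowest to the highest probe where a gene has several, and dashed lines mark the 2-fold limit. Tagln, Acta2, Myl9 and Tpm2 lie past the limit on both arrays and on opposite sides.

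Tagln encodes transgelin, also called SM22 alpha, an actin-binding protein of smooth muscle and a standard SRF target. Its log2 level was 9.06 in green and 12.29 in red of the withdrawal array, and 12.24 in green and 9.22 in red of the array labelled Bcl-2. The level was therefore high in red of the first array and in green of the other, and low in the other two channels, although the green channels carry one label. The log2 ratios were 3.23 (9.41-fold higher in red) and -3.02 (8.12-fold lower in red), the largest in size among the members on each array. The scanner software gave ratios of 3.45 and -3.27, with a deposited error of 0.38 and 0.37 on the log2 scale. That error covers no difference between cultures. With the sign turned the ratios are -3.23 and 3.02.

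Myl9, the regulatory light chain of smooth muscle and non-muscle myosin, had a log2 level of 10.68 in green and 12.63 in red of the withdrawal array. On the array labelled Bcl-2 its level was 12.75 in green and 10.37 in red. Its ratios were 1.95, or 3.86-fold higher in red, and -2.38, or 5.21-fold lower in red, and with the sign turned -1.95 and 2.38. The channels again fell into a high pair, red of the first array and green of the other, and a low pair.

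Acta2 had a log2 level of 7.67 in green and 9.86 in red of the withdrawal array, and of 9.73 in green and 7.80 in red of the array labelled Bcl-2. These gave ratios of 2.19 (4.57-fold higher in red) and -1.93 (3.81-fold lower in red), which become -2.19 and 1.93 with the sign turned. The ratio of the scanner software was larger, at 2.81 and -2.70, which is over 1.5-fold from the loess value on both arrays. Acta2 was thus high and low in the same channels as Tagln and Myl9.

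Tpm2 encodes beta-tropomyosin, which lies along the filaments of smooth muscle and slow skeletal muscle. Its log2 level was 7.48 in green and 8.75 in red of the withdrawal array, and 8.55 in green and 7.47 in red of the array labelled Bcl-2. The ratios were 1.27 and -1.07, close to the limit, with folds of 2.41 and 2.10. Turned, they read -1.27 and 1.07, and the scanner software gave 1.71 and -2.06.

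**Figure D2:**
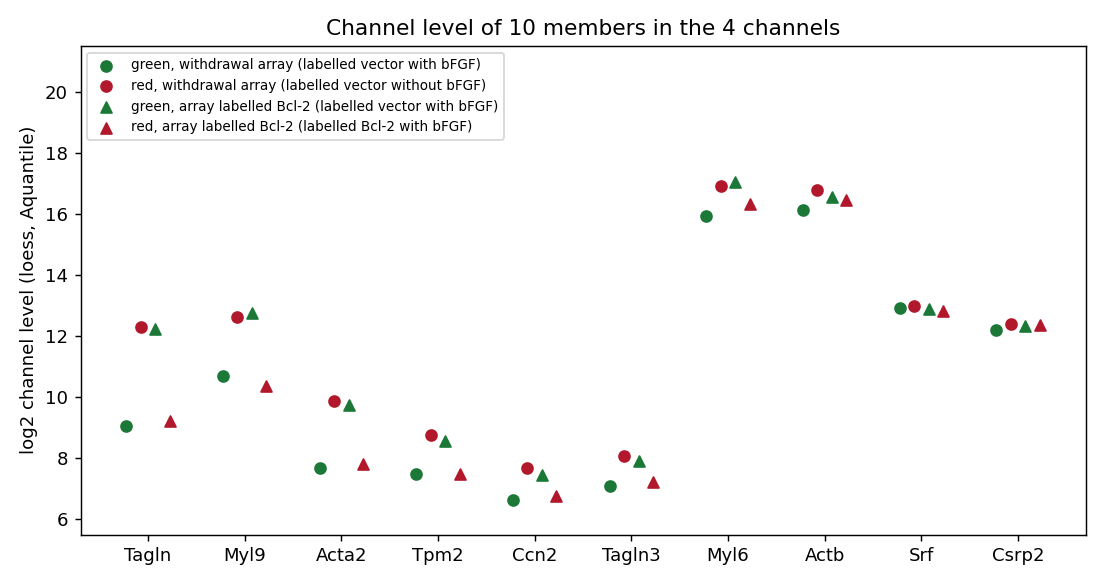
Log2 level of 10 members in the 4 channels, green and red of each array, after loess and Aquantile scaling; levels may be compared between channels of 1 gene and not between genes. Tagln, Myl9, Acta2 and Tpm2 were high in red of the withdrawal array and green of the array labelled Bcl-2, while the 4 points of Srf and Csrp2 lie close together.

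The green channels, which carry one label, were compared directly. Tagln was 3.18 higher on the log2 scale in green of the array labelled Bcl-2 than in green of the withdrawal array, Myl9 was 2.07 higher, Acta2 2.06 and Tpm2 1.07. In red the same genes differed by -3.07, -2.26, -2.06 and -1.28. Over the 39 members measured in both channels of both arrays, the SD of the difference between the green channels was 0.69, and that between the red channels was 0.68. Red of the withdrawal array and green of the array labelled Bcl-2 differed with an SD of 0.15, and the remaining crossed pair, green of the first array and red of the other, with an SD of 0.18. Over 26861 spots of all genes the same pairs gave 0.40, 0.38, 0.14 and 0.15. Thus the members lay closer together in channels with different labels than in channels with the same label, as the spots of all genes did. The cause was not tested.

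The other smooth muscle and muscle members had smaller ratios. Over the 17 measured members of this group, 17 lay above 0 on the withdrawal array and 4 (23.5%) were at least 2-fold higher in red, with a median log2 ratio of 0.36 and a range of 0.13 to 3.23. On the array labelled Bcl-2, 13 lay below 0 and 4 (23.5%) were at least 2-fold lower, with a median of -0.24 and a range of -3.02 to 0.08. The medians over all genes were 0.03 and -0.01. Of all genes, 54.2% lay above 0 on the withdrawal array and 51.8% lay below 0 on the other. Turned, the group medians are -0.36 and 0.24.

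Among muscle actins, Actc1, cardiac actin, had log2 levels of 8.66 in green and 9.15 in red of the withdrawal array and of 9.14 and 8.88 on the other, with ratios of 0.49 and -0.26. The ratios of Actg2, the actin of enteric smooth muscle, were 0.26 and -0.09, and those of Acta1 were 0.15 and 0.07. Log2 levels ran from 7.09 to 7.37 for Actg2 and from 7.07 to 7.23 for Acta1. The lowest levels above background ran from 6.29 to 6.62 over the 4 channels, so the ratios of these 2 genes come from dim signal. Only Acta2 of these 4 muscle actins met the 2-fold limit. These paralogues have near-identical coding sequences, and cross-hybridization between their probes was not tested.

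Of the myosin genes in the group, Myh11, the smooth muscle myosin heavy chain and a late marker of that lineage, had ratios of 0.33 and -0.23. Its signal was dim, with log2 levels from 7.26 to 7.60, and the scanner software gave 0.51 and -0.80. Mylk, the kinase that phosphorylates myosin light chains, was well above background in 1 channel on each array, red of the withdrawal array and green of the other. Its ratios were 0.39 and 0.02, and median centring put the first at 0.06. The scanner software gave 0.37 and -0.95 for Mylk. Neither gene met the limit that Myl9 passed.

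Tpm1 encodes alpha-tropomyosin, and its 2 probes, designed to different transcript records, disagreed. One had ratios of -0.22 and 0.29, while the other probe had 0.82 and -0.84, so the gene value, 0.30 and -0.27, describes neither probe. Cald1, caldesmon, which restrains actomyosin ATPase, had ratios of 0.43 and -0.57, with probes at 0.18 and 0.67 and at -0.55 and -0.60. Csrp1, a LIM protein of smooth muscle, had levels of 10.82 and 11.20 on the withdrawal array and of 11.37 and 10.62 on the other. Its ratio of -0.76 (array labelled Bcl-2) was the largest in size among the group members that did not meet the limit there.

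The remaining members of the group had smaller ratios than those past the limit. The actin crosslinker Flnc had ratios of 0.36 and -0.24, and Smtn, smoothelin, of contractile smooth muscle, had 0.36 and -0.18. Flnc was dim, with log2 levels from 7.30 to 7.66, and the scanner software gave 0.42 and -0.67 for it. Csrp2, a relative of Csrp1, had 0.18 and 0.03, with an SD over its repeat spots of 0.027 and 0.015. Des, desmin, the muscle intermediate filament, was above background in red alone on the withdrawal array, and had ratios of 0.18 and -0.08. Other settings put its first ratio on either side of 0, from -0.04 with median centring to 1.14 in the value table. Pdlim7, which links actin to signalling kinases, had 0.13 and 0.08. Thus the group spread from Tagln, with the largest ratios of all members, to genes within 0.2 of 0. On the withdrawal array the lowest of the 4 genes past the limit, Tpm2 at 1.27, stood apart from the next, Actc1 at 0.49. On the array labelled Bcl-2, Tpm2 at -1.07 lay close to Csrp1 at -0.76 after loess. The scanner software set them further apart there, at -2.06 (deposited error 0.29) for Tpm2 and -0.75 for Csrp1.

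The SRF and YAP group had 5 measured members, all above 0 on the withdrawal array, with a median of 0.35 and a range of 0.03 to 1.04. On the array labelled Bcl-2, 4 lay below 0, with a median of -0.59 and a range of -0.68 to 0.01. The shares over all genes were 54.2% above 0 on the first array and 51.8% below 0 on the other. The 2-fold limit was met by 1 member, Ccn2, on the withdrawal array, and by 0 on the array labelled Bcl-2. Turned, the medians are -0.35 and 0.59.

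Ccn2 had a log2 level of 6.64 in green and 7.68 in red of the withdrawal array and of 7.45 in green and 6.77 in red of the other. It was well above background in red alone on the first array and in green alone on the other. After loess it was therefore at least 2.06-fold higher in red of the withdrawal array, while red of the array labelled Bcl-2 was at least 1.61-fold lower than green. These bounds hold for the loess scale alone, since median centring put the first ratio at 0.94. The fitted ratios were 1.04 over 10 spots (SD 0.216) and -0.68 over 8 spots (SD 0.162). The scanner software gave 3.46 and -3.87, so the size of its ratios depends on the processing. Its high channels were the same as those of Tagln, but Ccn2 was counted as measured through these channels alone.

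Ccn1, also called Cyr61, a second matrix protein and YAP reporter, had levels of 8.05 and 8.40 on the withdrawal array and of 8.53 and 7.94 on the other. Its ratios were 0.35 and -0.60. Vcl, vinculin, which ties actin to adhesions and is a known SRF target, had levels of 9.24 and 9.69 and of 9.61 and 9.01, with ratios of 0.45 and -0.59. Its probe with repeat spots gave 0.56 (SD 0.046) and -0.51 (SD 0.042), and the other probe gave 0.34 and -0.68. Both genes were higher in the channels in which Tagln was high, red of the first array and green of the other, at a smaller size.

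Srf, the transcription factor itself, had levels of 12.92, 12.97, 12.89 and 12.81 in green and red of the withdrawal array and green and red of the other. Its ratios were 0.05 and -0.08, within the deposited spot error. Zyx, zyxin, of focal adhesions and stress fibres, had ratios of 0.03 and 0.01, from probes on both sides of 0. The co-activator Myocd and the YAP reporter Ankrd1 were not well above background, and Mrtfa had no probe, so the co-activators of SRF were not measured here.

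**Figure D3:**
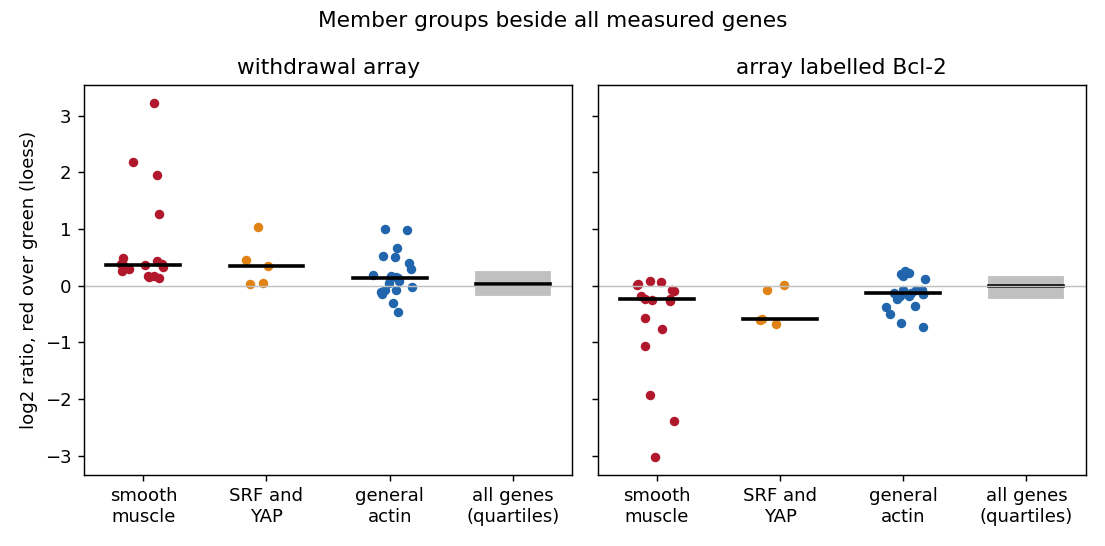
Log2 ratio, red over green, of the members of each group on each array, with the group median as a black line and the quartiles and median of all measured genes as a grey box; points are spread sideways for legibility. Medians are 0.36, 0.35 and 0.14 on the withdrawal array and -0.24, -0.59 and -0.14 on the array labelled Bcl-2, beside 0.03 and -0.01 for all genes.

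The general actin group had 20 measured members, and 0 met the 2-fold limit on either array. On the withdrawal array 13 (65.0%) lay above 0 and 7 below, with a median of 0.14 and a range of -0.47 to 1.0. Of all genes on that array, 54.2% lay above 0. On the array labelled Bcl-2, 5 lay above and 15 below, with a median of -0.14 and a range of -0.72 to 0.26. There, 51.8% of all genes lay below 0. Turned, the medians are -0.14 and 0.14. The limit fell just above its highest members: Myl6 and Tagln3, each 1.99-fold higher in red there, were just outside it, and Ccn2, at 2.06-fold, was the member just inside.

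Myl6, the essential light chain shared by non-muscle and smooth muscle myosin, had levels of 15.94 in green and 16.93 in red of the withdrawal array. Its levels were 17.05 in green and 16.34 in red of the other array, and the ratios were 1.0 and -0.72. Tagln3, the neuronal relative of Tagln, had levels of 7.08, 8.07, 7.90 and 7.24 in the same order, with ratios of 0.99 and -0.66. The scanner software gave 1.53 and -1.37 for Tagln3, past the limit on both arrays. Tagln2, the third transgelin, had ratios of 0.05 and -0.15. The ratios of the 3 transgelins thus ranged from near 0 to the largest of all members.

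Actb, cytoplasmic beta-actin, often used as a reference gene, had levels of 16.12 and 16.78 in green and red of the withdrawal array and of 16.57 and 16.45 on the other. Its ratio was 0.66 over 9 spots (SD 0.039) on the first array and -0.12 over 10 spots (SD 0.024) on the other. Median centring put the first at 1.17, past the limit. Actg1, the other cytoplasmic actin, had 0.16 and -0.12. The ratios of the cytoplasmic actins thus differed in size on the withdrawal array and were equal on the other.

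Among crosslinkers and filament binders, Actn1, an alpha-actinin of stress fibres, had ratios of 0.50 and -0.50, while its relative Actn4 had -0.08 and -0.15. Flna, filamin A, had 0.13 and -0.18, and Cnn3, the non-muscle calponin, had 0.29 and -0.37. The tropomyosin Tpm4 had -0.14 and -0.07. Tpm3 had -0.31 and 0.26, again from 2 probes to different transcript records that disagreed: 0.10 and -0.10 for one, -0.73 and 0.62 for the other. The second probe of Tpm3 thus ran against Tpm2 on both arrays.

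The non-muscle myosin heavy chains had smaller ratios than Myl9 and Myl6. Myh9 had ratios of -0.47 and 0.20, the lowest of all members on the withdrawal array, and Myh10 had -0.07 and -0.08. Of the monomer-binding proteins, thymosin beta 4, Tmsb4x, had 0.52 (SD 0.101 over 9 spots) and 0.17 (SD 0.037 over 8 spots), above 0 on both arrays. Tmsb10 had 0.40 and -0.35, profilin 1, Pfn1, had 0.19 and -0.07, and cofilin 1, Cfl1, which severs filaments, had -0.03 and -0.24. None of these met the limit on either array.

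Rhoa, the GTPase that drives stress fibre assembly, had ratios of 0.09 and -0.19. Rhob, its endosomal relative, had 0.17 and 0.22, with probes at -0.05 and 0.39 on the withdrawal array and at 0.07 and 0.37 on the other. Rock2, a kinase that promotes actomyosin contraction, had -0.11 and 0.12. The gene values of these 3 regulators thus lay within 0.25 of 0 on both arrays.

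Set side by side, the share of members past the limit with red higher on the withdrawal array was 23.5% for the smooth muscle group, 1 of 5 for the SRF and YAP group and 0 of 20 for the general group. On the array labelled Bcl-2 the same groups had 23.5%, 0 of 5 and 0 of 20 at least 2-fold lower. The difference between groups was not tested, since there is 1 array per comparison. Of the 5 members that carry a CArG box in the window searched, Cnn2 had no probe. Acta1, Actc1, Srf and Actg1 had ratios of 0.15, 0.49, 0.05 and 0.16 on the withdrawal array. On the array labelled Bcl-2 they had 0.07, -0.26, -0.08 and -0.12, and none met the limit on either array. Acta2, which met it, had in its window only the form with an inner C or G. Tagln and Myl9 matched no window, and a link between these DNA words and the ratios was not tested.

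Other genes of the same pathways were drawn from 5 lists. Among 18 measured genes of the ARP2/3 and WAVE complexes, which nucleate branched filaments, the withdrawal array had 0 at least 2-fold higher in red and 1 lower, and the other had 0, with medians of -0.01 and -0.01. That gene was Arpc1b, an ARP2/3 subunit, with ratios of -1.08 and 0.59. Among 24 genes of filament turnover, Ssh3, a cofilin phosphatase, was the 1 gene past the limit on each array, with ratios of 1.64 and -1.26. Their medians were 0.14 and -0.21. With the sign turned, each of these counts moves to the opposite side.

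None of the other SRF and MRTF targets, 18 and 17 measured, met the 2-fold limit. The largest on the withdrawal array was Pdlim1, a PDZ and LIM protein of stress fibres, at 0.80 and -0.30. Egr1, an immediate early gene named here after its values were seen, was the largest on the other and had the opposite signs, at -0.78 and 0.75, and the medians were 0.17 and -0.01. Of 17 YAP and TAZ pathway genes, F3, tissue factor, was the 1 gene past the limit on each array, with ratios of 1.88 and -2.17, with list medians of 0.10 and -0.02. The wider SRF and YAP lists thus had medians closer to 0 than the group of 5 described above.

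The focal adhesion list had the most genes past the limit of the 5, with 3 of 22 genes on each array, higher in red on the first and lower on the other. Anxa2, a membrane- and actin-binding annexin, had ratios of 1.63 and -1.67. Lgals1, galectin 1, had 1.20 and -1.40, and S100a6, a calcium-binding protein, had 1.13 and -1.50. Medians were 0.13 and -0.16.

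Markers of cells in which smooth muscle genes are best known were read in the same way. Of the 13 mural cell and pericyte markers, 12 had a probe and 6 were measured, with 0 past the limit and medians of 0.15 and -0.23. Rgs5, Kcnj8, Abcc9, Heyl, Higd1b and Foxs1 were not well above background in any channel, and Pdgfrb was above it in 1 channel of each array, with ratios of 0.20 and -0.05. The largest ratio of the list was that of the adhesion molecule Mcam, at 0.96 and -0.62. The summed linear level of the 12 markers was 6046 in green and 6241 in red of the withdrawal array, and 7869 and 6715 on the other. Most of that sum was 1 gene, Cspg4 (NG2), which glial progenitors also express, with ratios of -0.01 and -0.24. Without Cspg4 the sums were 1409, 1638, 1651 and 1440 in the same order, higher in the channels in which Tagln was high. Most of that rise came from Mcam, whose log2 levels were 7.94, 8.91, 8.80 and 8.18. Anpep, another marker of the list, ran the other way, at -0.50 and 0.27. Of the 6 measured markers, 4 lay above 0 on the withdrawal array and 5 below 0 on the other. The same shares over all genes were 54.2% and 51.8%.

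Most fibroblast and meningeal markers lay above 0 on the withdrawal array (91.7%) and below 0 on the other (90.9%), as most members did. Over all genes these shares were 54.2% and 51.8%. Of 14 listed, 12 were measured on the withdrawal array, with 0 past the limit and a median of 0.38, and 11 on the other, with 3 at least 2-fold lower and a median of -0.47. The 3 were collagen genes: Col1a1 (0.55 and -1.10), Col1a2 (0.74 and -1.71) and Col3a1 (0.45 and -1.08). Their list summed to 9100 in green and 13334 in red of the withdrawal array and to 12679 and 6978 on the other. Thy1 was not well above background. The part of these cells in the ratios of Tagln, Acta2, Myl9 and Tpm2 was not tested.

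Endothelial markers were mostly dim, with 7 of 10 not above background in any channel, Pecam1 and Cldn5 among them, and sums from 1113 to 1178 over the 4 channels. Astrocyte markers had the largest shift of the cell type lists, with 4 of 9 past the limit on each array and medians of 0.88 and -0.96. They summed to 10488 in green and 35969 in red of the withdrawal array and to 35145 and 11890 on the other. Gfap was not well above background. The astrocyte sums were therefore high in the channels in which Tagln was high. Neuron markers, 9 measured on each array, had medians of 0.42 and -0.15 and sums of 16588, 23082, 21905 and 17085 in the same order of channels, or 9899, 11539, 10492 and 11040 without Gap43, with Tubb3, neuronal tubulin, at 1.03 and -0.58. On the withdrawal array the medians of the neural progenitor, astrocyte and neuron lists were all above the 0.36 of the smooth muscle group. So was that of the fibroblast and meningeal list, at 0.38. The part of these cells in the result was not tested.

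**Figure D4:**
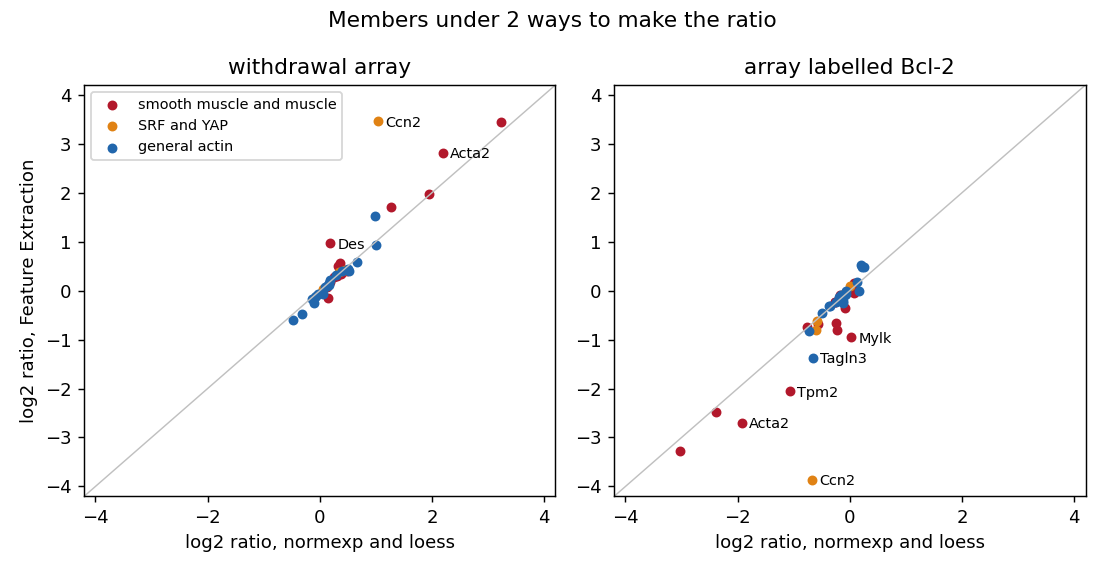
Log2 ratio of each measured member from the scanner software, Feature Extraction, against that after normexp and loess, on each array, with the line of equal values in grey and genes that differ by over 1.5-fold named. On the withdrawal array these are Acta2, Ccn2 and Des, and on the array labelled Bcl-2 they are Acta2, Tpm2, Ccn2, Tagln3 and Mylk.

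The precision of these values is limited by the number of arrays. On each array 31 measured members rested on 1 probe and 11 on several, and the probes of 4 of the 11 lay on both sides of 0. The deposited error, which belongs to the ratio of the scanner software, ranged over the members from 0.20 to 0.46 on the withdrawal array. On the array labelled Bcl-2 it ranged from 0.20 to 0.57, with a median of 0.21 on both. The 5 member probes printed more than once had an SD between spots of 0.027 to 0.216 and of 0.015 to 0.162. These errors cover spots within an array and no difference between cultures.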

How the data were processed

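Total RNA from 4 labelled samples was read on 2 two-colour arrays. The deposited scanner files give spot and background intensity (median over pixels) for each channel, per the file headers, from Feature Extraction 11.5.1.1 with protocol GE2_1105_Oct12, design 028282 and build rn4. The submitters' processing notes name version 8.5.1.1. An alternative used the log10 ratio (red over green) that the authors deposited with an error for each spot. The deposited p-value from the spot noise model was not used. Flags of 0 or 1 in the deposited files mark outlier, saturated and well-above-background spots. A value table from the authors gives 2 columns of a linear ratio, with medians of 0.932 and 0.944 and with scale, centring and direction unstated. Within 0.05 (log2) of a constant over 28395 probes, column 1 matched the withdrawal array, red over green, for 100% of them. Column 2 matched the product of both arrays' ratios for 100% and its own ratio for 7.06%.

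Signals were corrected by normexp (offset 50) and normalized within arrays by loess with controls at weight 0, using limma 3.58.1 (R 4.3.3). Channel levels were then scaled by Aquantile. Spots of a probe were averaged after outlier spots (534 and 576) were left out, and 0 were saturated. Median net signal was 189 in green and 284.5 in red of the withdrawal array and 201 and 266 on the other. Probes well above background in at least 1 channel were kept (20328 and 19026), and a gene takes the median of its probes. Accessions named 60.4% of 30367 probes. Genes dim in 1 channel have an "at least" fold whose dim side is the dim signal or the lowest signal above background, whichever is higher, and which is open to dye bias. Counts used pandas 2.3.3 and numpy 2.4.6 under Python 3.11.15, and the scripts were tested on simulated data. Every member is named. From each other pathway list, up to 4 genes at least 2-fold on either array were named by size of ratio, or otherwise the largest. Members and lists were chosen with earlier results of these data known. Alternatives were the Feature Extraction ratio, an offset of 10, median centring, the value table, 2 other filters on dim probes, the brightest probe, a 1.5-fold limit and quantile scaling of channels. The result of 1 further pathway list is not reported here.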

Additional observations from a re-analysis of the deposited data

Results flagged for a closer look

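For 4 members the ratios on the 2 arrays lay on opposite sides of 0 and past the 2-fold limit on both. The ratio on the array labelled Bcl-2 minus that on the withdrawal array was -6.26 on the log2 scale for Tagln, -4.33 for Myl9, -4.12 for Acta2 and -2.34 for Tpm2. With 1 array per comparison and a shared labelled control, these differences were not tested. Opposite signs were not particular to these members. Over 42877 gene spots the ratios of the arrays had a Pearson correlation of -0.67, or of -0.12 with the scanner software. Single-array shares of all genes past the limit were 2.42% (red higher, withdrawal array) and 2.00% (red lower, array labelled Bcl-2). The share of all genes past it on both arrays is not given here.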

How the results depend on the processing

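No ratio that met the 2-fold limit changed its side of 0 under any alternative, and 0 members met the limit in the opposite direction. The count of members past the limit with red higher on the withdrawal array, 5 in the report, was 8 with median centring, 8 from the value table and 8 at a 1.5-fold limit, and 4 to 6 under the others. The count at least 2-fold lower on the array labelled Bcl-2, 4 in the report, was 7 from the value table, 10 at a 1.5-fold limit, and 4 to 6 under the others. Tagln, Acta2, Myl9 and Tpm2 were in every one of these counts. Ccn2 was lost on the withdrawal array with median centring (0.94) and was left out where both channels had to be above background. Median centring and the value table moved the median of all genes on the withdrawal array by 0.14 and 0.13. The share of all genes moved too: 2.42% higher on the withdrawal array became 4.36% with median centring, 10.5% from the value table, 8.17% with the Feature Extraction ratio and 7.94% at 1.5-fold. On the other array 2.00% lower became 8.20%, 6.74% and 6.64% under the last 3. Of all genes past the limit on the array labelled Bcl-2, 21.8% were higher in red, and 34.2% with the Feature Extraction ratio. Group medians kept their sign. On the withdrawal array they ranged from 0.33 to 0.60 for smooth muscle, 0.19 to 0.55 for SRF and YAP and 0.11 to 0.38 for general actin. On the other they ranged from -0.82 to -0.23, -0.77 to -0.08 and -0.27 to -0.12. No paired analysis was possible because each comparison has 1 array. Leaving out a replicate was not possible for the same reason.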

Other observations

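The striated muscle list, which holds no member of the groups above, had none past the 2-fold limit after loess. Of 28 genes, the withdrawal array measured 16 and the other 14, with medians of 0.30 and -0.15. Tnnt1, slow skeletal troponin T, had ratios of 0.94 and -0.56, and the cardiac myosin heavy chains Myh6 and Myh7 had 0.77 and -0.88 and 0.75 and -0.56. Tnnc2, a skeletal troponin C, came closest to the limit, at 0.55 and -0.99. The Feature Extraction ratios were larger, at 1.80 and -1.35 for Tnnt1, 1.16 and -1.70 for Myh6 and 1.62 and -1.54 for Myh7. For Tnnc2 they were 0.59 and -1.22, and the medians of the list were 0.55 and -0.65. The count of none past the limit thus depends on the processing. The myogenic factor Myod1, muscle creatine kinase, Ckm, and the skeletal myosins Myh1, Myh2 and Myh4 were not well above background in any channel. The list summed to 3526 in green and 4297 in red of the withdrawal array and to 4167 and 3521 on the other.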
